A study of Mus musculus with 8 samples.

Results

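The genes described are the hypoxia-inducible factors, the enzymes and transporters of glycolysis, and known hypoxia target genes, 34 genes chosen by symbol. All 34 were found among the 51886 gene symbols of the table, and 33 passed the filter on low values, which left 14472 genes to test. Hif3a, at under 1 TPM in every library, did not pass. TPM is a length-corrected share of transcripts scaled to a fixed total per library, so levels of different genes can be set side by side.

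The libraries came from granulosa cells, the hormone-producing somatic cells that surround the oocyte, of female mice of the PGR-A KO strain. The 4 PGR-A KO libraries lacked the A isoform of the progesterone receptor, and the 4 WT libraries came from wild-type animals of the same strain. All mice were 21 to 27 days old and were given 5 IU of eCG, then 5 IU of hCG after 46 h to trigger ovulation, and cells were taken 8 h after hCG. Each library pooled 2 to 3 mice, so p-values measure the spread between pools. How the PGR-A allele was made is not given in the sources used here. The comparison asks which transcripts differ when PGR-A is missing from the ovulatory follicle.

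In oxygen, prolyl hydroxylases mark the alpha subunits of hypoxia-inducible factor, and the von Hippel-Lindau protein then sends them for degradation. When oxygen falls the alpha subunits persist, pair with ARNT and bind short DNA elements at genes for glucose uptake, glycolysis, mitophagy and vessel growth. The subunits are controlled mainly at the protein level, so transcript values alone do not measure their activity. The granulosa layer of a follicle has no blood vessels of its own until ovulation, and hypoxia-inducible factors are known to act in the ovulating follicle of the mouse.

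All 13 granulosa markers passed the filter, 12 of them with lower means in PGR-A KO and 0 called, with summed levels of 5777 to 7295 TPM in PGR-A KO and 5986 to 9766 TPM in WT. Pgr, the targeted gene, stood at 2.01 to 3.52 TPM in PGR-A KO and 0.756 to 1.56 TPM in WT, but gene-level values cannot separate its isoforms and do not check the labels. In many genes PGR-A KO replicate 3 stood apart from its group, and so did WT replicate 1. Of 12 ovulatory response markers, the summed level was 1319 TPM in PGR-A KO replicate 3, against 2710 to 3232 TPM in the other PGR-A KO libraries. The same sum was 3052 TPM in WT replicate 1, against 1518 to 2356 TPM in the other WT libraries. Changes without these libraries are also given for Hif1a, Epas1, Egln3, Hk2, Pfkfb3, Bnip3, Ndrg1, Ankrd37, Ddit4 and Bhlhe40. The libraries were picked because their values lay with the other genotype. Without both, 8.01% of all genes had a limma adjusted p under 0.05, against 0.0138% with all libraries. The adjusted p-values of that fit therefore do not measure an effect of genotype. The depth of each library is unknown, because TPM keeps no read counts.

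No member passed the threshold of an adjusted p under 0.05 (limma over all genes, Benjamini-Hochberg), where 0.0138% of all genes did. At an unadjusted limma p under 0.05 there were 3 members of 33, or 9.09%, against 6.31% of all genes tested. Epas1 and Bnip3 had lower means in PGR-A KO, where 5.33% of all genes had such a p with a lower mean. Ankrd37 had a higher mean, where 0.974% of all genes had such a p with a higher mean. The PGR-A KO and WT libraries did not overlap in Epas1 and Bnip3, which is 6.06% of the tested members, against 3.42% of all genes. Both were lower in PGR-A KO, and over all genes 2.82% lay apart as lower and 0.601% as higher. Of the 33 members 18 had positive and 15 negative changes, with a median of 0.0094 on the log2(TPM + 1) scale, where all genes tested had a median of -0.023. The 95% interval of the change lay within 1 of 0 for all 33 members and within 0.5 of 0 for 22 of them.

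**Figure D1:**
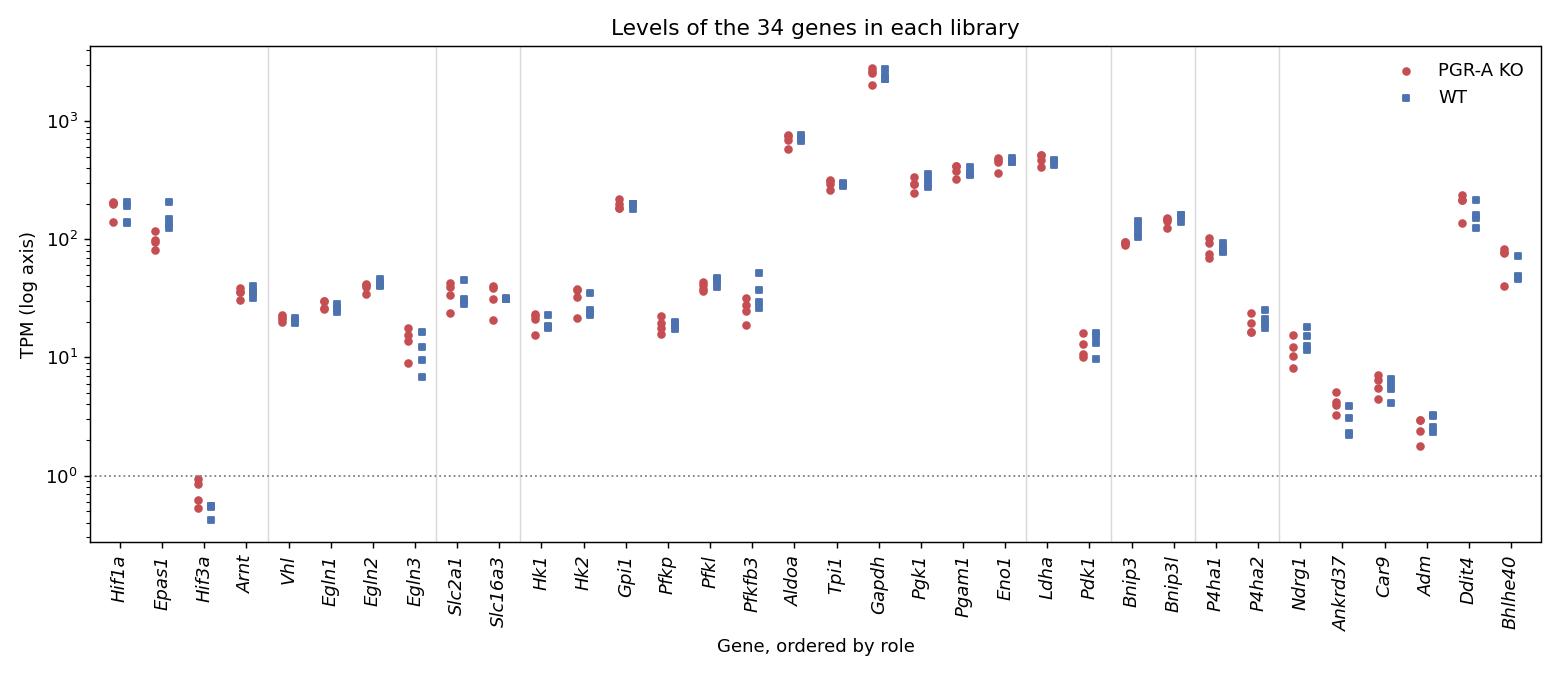
TPM of each of the 34 genes on a log axis, with 4 PGR-A KO libraries (circles, left) and 4 WT libraries (squares, right) per gene, ordered by role, and a dotted line at 1 TPM. Gapdh was highest at a mean of 2468 TPM over the 8 libraries and Hif3a lowest at 0.626 TPM, and the groups are apart without overlap in Epas1 and Bnip3.

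The upstream sequences of Bnip3 and Ankrd37 are shown because, of the 3 members at an unadjusted p under 0.05, these have an entry among the RefSeq promoter sequences of GRCm38.p6. The core letters of the hypoxia response element were searched as ACGTG and GCGTG on both strands, in the 250 bases before each RefSeq gene start. Overlapping matches were merged to a single site, so that a palindromic CACGTG counts as 1. The capitals mark the sites. The Bnip3 sequence is chr7:138909507-138909756 and the Ankrd37 sequence is chr8:45999851-46000100, both on the minus strand and written 5′ to 3′.
Bnip3: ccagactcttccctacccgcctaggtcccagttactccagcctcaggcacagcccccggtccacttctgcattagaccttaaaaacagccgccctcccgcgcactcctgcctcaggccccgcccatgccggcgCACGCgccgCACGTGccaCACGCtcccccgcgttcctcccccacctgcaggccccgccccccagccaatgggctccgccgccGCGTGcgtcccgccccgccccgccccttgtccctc
Ankrd37: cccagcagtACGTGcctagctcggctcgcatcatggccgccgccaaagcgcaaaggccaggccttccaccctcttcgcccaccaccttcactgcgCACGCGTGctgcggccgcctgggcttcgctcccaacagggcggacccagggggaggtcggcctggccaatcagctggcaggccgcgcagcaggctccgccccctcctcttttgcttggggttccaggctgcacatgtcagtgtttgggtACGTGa
Bnip3 holds 4 sites, 3 of them close together in the middle of the window, and Ankrd37 holds 3, the last of which starts 6 bases before the RefSeq gene start. In GENCODE M21 the minus-strand Ankrd37 gene extends to position 46005707, so this window lies inside the gene as placed there.

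Such letters lie before most members. Of the 30 members with an entry, 27 held at least 1 site before a listed start, or 90%. The share was 41.5% of the 27025 genes in the RefSeq table and 60.4% of the 10712 tested genes that have an entry. Vhl, Gpi1 and Tpi1 held none in this window, and Epas1, Bnip3l, Ndrg1 and Bhlhe40 have no entry. A match is a description of letters and does not show that a factor binds. The members include known hypoxia target genes, so their share beside that of all genes is a description and not a test. Members with sites had changes in either direction: Bnip3 with 4 sites had a log2 change of -0.37, and Ankrd37 with 3 sites had 0.42.

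**Figure D2:**
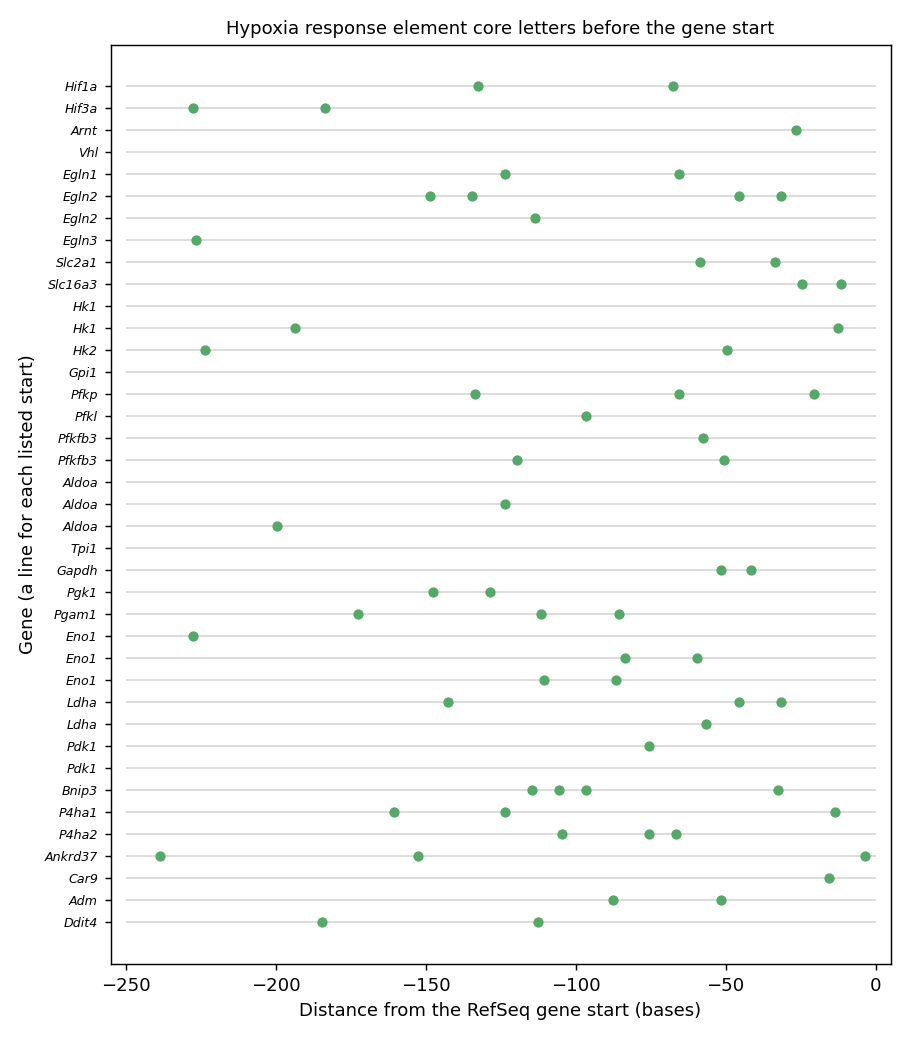
Position of each merged ACGTG or GCGTG match (green points, either strand) in the 250 bases before each RefSeq start of 30 members, by distance of its centre from the start in bases. Genes with several listed starts have several lines. Vhl, Gpi1 and Tpi1 have no point, and Bnip3 and Egln2 each have a line with 4 points.

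None of the factor subunits passed the adjusted threshold, and Epas1 was the one whose libraries did not overlap between the genotypes. Epas1 encodes HIF-2alpha, the alpha subunit best known from endothelial cells and from control of erythropoietin (ENSMUSG00000024140.10, chromosome 17, 86753700 to 86833410, plus strand, mm10). PGR-A KO replicates 1 to 4 held 117, 98.1, 81.6 and 95.7 TPM of Epas1, against 205, 149.6, 134 and 124 TPM in WT replicates 1 to 4. The highest PGR-A KO library lay below the lowest WT library. Epas1 averaged 98.2 ± 14.7 TPM in PGR-A KO and 153 ± 36.2 TPM in WT (SD, n = 4 each), a ratio of 0.642. The log2 change was -0.62 (SE 0.16, 95% interval -0.99 to -0.25), with a limma p of 0.0041 and an adjusted p of 0.636. The exact 2-sided permutation p was 0.0286, the smallest that 4 against 4 libraries can give. WT replicate 1 was far above the others, and without it the log2 change was -0.47 (limma adjusted p = 0.229). When PGR-A KO replicate 3 was left out as well, the change shrank to -0.39 (limma adjusted p = 0.0615). In that fit 8.01% of all genes passed, with the left-out libraries picked by their values. In RNA from a mixture, fewer cells of a type and less RNA per cell cannot be told apart.

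Endothelial cells and leukocytes also express Epas1, and their markers were read beside it. Of 9 endothelial markers 7 were tested, 5 with lower and 2 with higher means in PGR-A KO, 0 of them called. Their summed level was 23.8 to 41.4 TPM in PGR-A KO and 30.9 to 60.01 TPM in WT, with ranges that overlap, and none was listed at 0 in any library. PGR-A KO replicate 3 was lowest in both the endothelial sum and Epas1. The highest endothelial sums were 60.01 TPM in WT replicate 2 and 46.2 TPM in WT replicate 1, and WT replicate 1 had the highest Epas1 level. For 10 macrophage and leukocyte markers the sums were 70.9, 65.7, 123 and 56.9 TPM in PGR-A KO replicates 1 to 4. In WT replicates 1 to 4 they were 88.6, 101, 96.2 and 126 TPM. PGR-A KO replicate 3, the lowest library for Epas1, thus had the highest leukocyte sum of its genotype. The median log2 change of the 7 tested endothelial markers was -0.21. Cdh5, the endothelial cadherin, was the most negative of them, at -0.57 (SE 0.31), and the 2 with positive changes were Pecam1 (0.050) and Kdr (0.16). Of the 9 leukocyte markers that were tested, 7 had lower means in PGR-A KO. At an unadjusted limma p under 0.05 were 2, C1qc, a complement gene of macrophages (log2 change -0.60, SE 0.19), and the macrophage marker Cd68 (-0.36, SE 0.15). Over all genes tested 5.33% had such a p with a lower mean. The 2 leukocyte markers with positive changes were Adgre1 (0.020) and Cd52 (0.0053). The part of both cell types in the Epas1 difference was not tested.

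Hif1a encodes HIF-1alpha, the subunit that drives glycolytic genes in most cells (ENSMUSG00000021109.13, chromosome 12, 73901375 to 73947530, plus strand, mm10). PGR-A KO replicates 1 to 4 held 207, 201, 140.5 and 199 TPM of Hif1a, against 206, 189.99, 140.2 and 137 TPM in WT replicates 1 to 4. The groups overlapped widely: PGR-A KO replicate 3 was low beside the other 3 PGR-A KO libraries, and in WT the high values were those of replicates 1 and 2. The log2 change was 0.16 (SE 0.17, 95% interval -0.23 to 0.54, limma adjusted p = 0.909). Without PGR-A KO replicate 3 it was 0.29, and without WT replicate 1 it was 0.26. With neither it was 0.39 (limma adjusted p = 0.0965), in the fit where 8.01% of all genes passed. Leaving out other single libraries gave values down to 0.066, without WT replicate 4. Arnt, the common beta subunit, stood at 36.0, 38.5, 30.6 and 35.9 TPM in PGR-A KO and 40.4, 35.6, 35.6 and 31.9 TPM in WT. The Arnt groups overlapped, with PGR-A KO replicate 3 lowest, and the log2 change of -0.025 changed sign with other scalings. Hif3a, whose product can act as an inhibitor of the other subunits, held 0.942, 0.847, 0.621 and 0.535 TPM in PGR-A KO and 0.423, 0.538, 0.55 and 0.552 TPM in WT. At such low levels no fold change is given.

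The ratio of Hif1a to Epas1 transcripts was higher in each PGR-A KO library than in every WT library. Within a library the ratio of Hif1a to Epas1 TPM does not depend on how that library was scaled. It was 1.76, 2.05, 1.72 and 2.08 in PGR-A KO replicates 1 to 4, against 1.005, 1.27, 1.05 and 1.11 in WT replicates 1 to 4. The mean ratio was 1.90 ± 0.186 in PGR-A KO and 1.11 ± 0.117 in WT (SD, n = 4 each). The libraries that stood apart in many genes lay with their own genotype here. Of 6 ratios between related members, this was the one whose groups did not overlap. The ratios of Bnip3 to Bnip3l, Hk2 to Hk1, Pfkp to Pfkl, P4ha1 to P4ha2 and Egln3 to Egln1 overlapped. The ratios were chosen after the values were seen, so no test is given, and the Hif1a to Epas1 ratio restates in part the Epas1 difference.

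**Figure D3:**
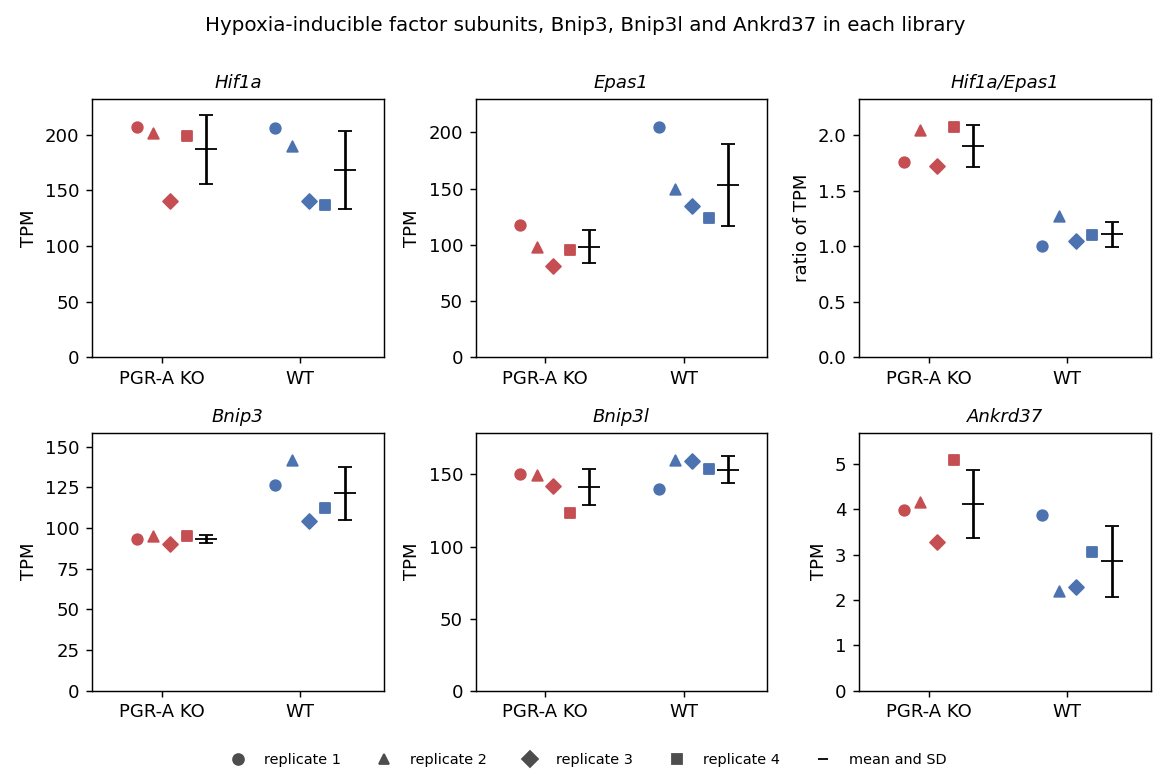
TPM of Hif1a, Epas1, Bnip3, Bnip3l and Ankrd37 and the ratio of Hif1a to Epas1 TPM in each library, PGR-A KO left and WT right, with the marker shape giving the replicate number and bars the mean and SD of 4 libraries. PGR-A KO lies below WT in all libraries for Epas1 and Bnip3, and the Hif1a to Epas1 ratio spans 1.72 to 2.08 in PGR-A KO and 1.005 to 1.27 in WT.

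The oxygen sensors were measured at low to moderate levels and none passed the test. Egln1, the main HIF prolyl hydroxylase, ranged from 25.5 to 30.3 TPM in PGR-A KO and from 24.3 to 28.3 TPM in WT. Egln2, a related hydroxylase, ranged from 34.3 to 41.8 TPM in PGR-A KO and from 40.5 to 45.7 TPM in WT. Vhl, which encodes the recognition subunit of the ubiquitin ligase, was the steadiest member, at 20.1 to 22.9 TPM in PGR-A KO and 19.7 to 21.5 TPM in WT. Egln3, a hydroxylase that is itself induced by hypoxia, varied most among the tested members over the 8 libraries. It held 15.6, 17.7, 8.99 and 13.8 TPM in PGR-A KO replicates 1 to 4, against 16.4, 6.86, 12.2 and 9.42 TPM in WT replicates 1 to 4. The highest and the lowest library of Egln3 were PGR-A KO replicate 2 and WT replicate 2, and the groups overlapped (log2 change 0.32, SE 0.26, limma adjusted p = 0.871). The Egln3 change ranged from 0.13 without WT replicate 2 to 0.51 without PGR-A KO replicate 3 or without WT replicate 1. With neither of the last pair it was 0.70 (limma adjusted p = 0.0622), in the fit where 8.01% of all genes passed.

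The 12 glycolytic enzyme genes had similar summed levels in the genotypes, a sum in which Gapdh weighs most. The summed level was 4963 ± 601 TPM in PGR-A KO and 4909 ± 342 TPM in WT (SD, n = 4 each), or 0.498% and 0.493% of all TPM. Log2 changes were positive in 6 and negative in 6, from -0.45 to 0.23, and no gene passed. Single enzymes ran from a ratio of PGR-A KO to WT means of 0.712 for Pfkfb3 to 1.19 for Hk2. Gapdh, the dehydrogenase that yields NADH, was the most abundant, at 2789, 2667, 2032 and 2579 TPM in PGR-A KO and 2748, 2400.3, 2253 and 2275 TPM in WT. Aldoa, the aldolase, held 747, 766, 583 and 692 TPM in PGR-A KO and 765, 725, 700.4 and 673 TPM in WT. In both genes the groups overlapped and PGR-A KO replicate 3 was the lowest of the 8 libraries.

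The later steps of the pathway were the next most abundant. Eno1, an enolase, held 489, 469.6, 365 and 448 TPM in PGR-A KO and 457, 488, 451 and 449 TPM in WT. Pgam1, phosphoglycerate mutase, held 419, 415, 323 and 376 TPM in PGR-A KO and 405, 361, 352 and 358 TPM in WT. Pgk1, which makes the first ATP of the pathway, held 339.7, 296, 247 and 295 TPM in PGR-A KO and 358, 327, 279 and 296 TPM in WT. In each of the 3 the groups overlapped, with PGR-A KO replicate 3 below the other 7 libraries. Changes of these genes ran from -0.10 to 0.048 on the log2 scale, each smaller than its SE of 0.096 to 0.11. Tpi1, triose phosphate isomerase, ranged from 262 to 319 TPM in PGR-A KO and from 280.5 to 297 TPM in WT. Gpi1, glucose phosphate isomerase, ranged from 184 to 218 TPM in PGR-A KO and from 181 to 199.8 TPM in WT.

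The genes for the early, regulated steps were lower in level. Pfkfb3, whose product makes the activator of phosphofructokinase, had the most negative change among the enzymes. It held 31.7, 27.5, 19.0 and 24.6 TPM in PGR-A KO replicates 1 to 4, against 51.5, 37.4, 29.2 and 26.2 TPM in WT replicates 1 to 4. The groups overlapped, and WT replicate 1 was the highest library. The log2 change was -0.45 (SE 0.22, 95% interval -0.94 to 0.041, limma adjusted p = 0.793). Without WT replicate 1 it was -0.27, and without PGR-A KO replicate 3 as well it was -0.13 (limma adjusted p = 0.629). Hk2, the inducible hexokinase, averaged 32.1 ± 7.52 TPM in PGR-A KO and 26.9 ± 5.39 TPM in WT (SD, n = 4 each), a log2 change of 0.23 (SE 0.19). The Hk2 change was 0.15 without PGR-A KO replicate 2, 0.41 without PGR-A KO replicate 3 and 0.36 without WT replicate 1. Hk1, the hexokinase of most tissues, ranged from 15.6 to 23.5 TPM in PGR-A KO and from 17.7 to 23.0 TPM in WT. The phosphofructokinase genes Pfkl and Pfkp had log2 changes of -0.15 (SE 0.081) and -0.012 (SE 0.11). Pfkp shares 748 exon bases with the opposite-strand gene Pitrm1, which had 138 TPM, so its level is uncertain if strand was not used. Same-strand copies summed to 2.41% of the Gapdh level and 0.869% of that of Eno1, and less for the other members that have copies.

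Transporters and the enzymes that set the fate of pyruvate gave no call. Slc2a1, the glucose transporter GLUT1, ranged from 23.6 to 42.4 TPM in PGR-A KO and from 28.5 to 45.5 TPM in WT. Slc16a3, a lactate exporter, ranged from 20.7 to 40.3 TPM in PGR-A KO and from 31.0 to 31.6 TPM in WT, so it was spread in PGR-A KO and almost constant in WT. Ldha, which turns pyruvate to lactate, held 513, 513, 413 and 469 TPM in PGR-A KO and 467, 423, 457 and 463 TPM in WT (log2 change 0.071, SE 0.086). PGR-A KO held both the highest and the lowest Ldha values, in replicates 1 and 2 and in replicate 3. Pdk1, a kinase that inhibits pyruvate dehydrogenase, ranged from 10.2 to 16.2 TPM in PGR-A KO and from 9.66 to 16.2 TPM in WT. Pdk1 went against most members, with its highest level in PGR-A KO replicate 3 and its lowest in WT replicate 1.

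Bnip3 had the lowest p of all members. It encodes a mitochondrial receptor for mitophagy and is a known target of HIF-1 (ENSMUSG00000078566.8, chromosome 7, 138890836 to 138909519, minus strand, mm10). PGR-A KO replicates 1 to 4 held 93.3, 95.2, 89.97 and 94.8 TPM of Bnip3, against 127, 142, 105 and 112 TPM in WT replicates 1 to 4. The PGR-A KO libraries were close together, and each lay below every WT library. Bnip3 averaged 93.3 ± 2.38 TPM in PGR-A KO and 121 ± 16.3 TPM in WT (SD, n = 4 each), a ratio of 0.770. The log2 change was -0.37 (SE 0.094, 95% interval -0.58 to -0.15), with a limma p of 0.00358 and an adjusted p of 0.625. The exact 2-sided permutation p was 0.0286, the smallest possible here. With both libraries that stood apart left out, the change was -0.32 (limma adjusted p = 0.117), in the fit where 8.01% of all genes passed.

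Part of the Bnip3 transcript has near-identical sequence elsewhere. Over 858 bases it matches, with 98.3% identity, the opposite strand of the lincRNA AC160336.1, which had a mean of 284 TPM. Whether the kit kept strand, and whether the quantification used it, is not clear from the sources used here, so the Bnip3 level is uncertain to that extent. AC160336.1 held 379, 294, 177 and 314 TPM in PGR-A KO and 409, 272, 218 and 208 TPM in WT, groups that overlap. Adding the 3 copies on the same strand left the Bnip3 change at -0.37. Bnip3l, a related mitophagy receptor also known from red cell maturation, ranged from 123 to 151 TPM in PGR-A KO and from 140.1 to 159.8 TPM in WT. The difference in Bnip3l was -0.12 on the log2 scale (SE 0.082, limma adjusted p = 0.847). The 8 erythroid markers summed to 3662 to 6320 TPM in PGR-A KO and 1734 to 11371 TPM in WT, and their part in the Bnip3l level was not tested.

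Ankrd37, an ankyrin repeat gene known as a HIF-1 target, was the member with the clearest higher mean, at low levels (ENSMUSG00000050914.16, chromosome 8, 45996902 to 46005707, minus strand, mm10). PGR-A KO replicates 1 to 4 held 3.98, 4.16, 3.27 and 5.08 TPM, against 3.88, 2.21, 2.28 and 3.05 TPM in WT replicates 1 to 4. WT replicate 1 lay above PGR-A KO replicate 3, and apart from this pair the groups did not overlap. Ankrd37 averaged 4.12 ± 0.745 TPM in PGR-A KO and 2.85 ± 0.782 TPM in WT (SD, n = 4 each). The log2 change was 0.42 (SE 0.17, 95% interval 0.049 to 0.79), with a limma p of 0.0307, an adjusted p of 0.783 and an exact permutation p of 0.0571. Ankrd37 shares 57 exon bases with the opposite-strand gene Ufsp2, which had 31.9 TPM, so its low level may be affected if strand was not used.

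Ddit4 and Bhlhe40 differed more between libraries of the same genotype than between the genotypes. Ddit4, an inhibitor of mTORC1 signalling, held 235, 213.5, 137 and 215 TPM in PGR-A KO, against 215, 125, 150.2 and 159 TPM in WT. Bhlhe40, a transcriptional repressor linked to the clock and to hypoxia, held 82.7, 78.6, 40.3 and 76.0 TPM in PGR-A KO, against 72.8, 49.2, 48.2 and 46.0 TPM in WT. In both genes PGR-A KO replicate 3 was the low library of its genotype, and the high library of WT was replicate 1. The log2 changes were 0.30 (SE 0.20) for Ddit4 and 0.33 (SE 0.24) for Bhlhe40, with limma adjusted p of 0.837 and 0.847. Without PGR-A KO replicate 3 they were 0.47 for Ddit4 and 0.57 for Bhlhe40, and the Ddit4 change was 0.18 without WT replicate 2.

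The remaining targets gave overlapping groups. Ndrg1, a gene induced by hypoxia in many cells, ranged from 8.14 to 15.5 TPM in PGR-A KO and from 11.5 to 18.2 TPM in WT (log2 change -0.30, SE 0.19). The Ndrg1 change was -0.16 without PGR-A KO replicate 3 and -0.19 without WT replicate 1. P4ha1 and P4ha2, which encode catalytic subunits of collagen prolyl hydroxylase, had log2 changes of 0.0047 (SE 0.12) and -0.14 (SE 0.15). Car9, carbonic anhydrase IX, ranged from 4.42 to 7.16 TPM in PGR-A KO and from 4.14 to 6.53 TPM in WT. Adm, the vasodilator peptide adrenomedullin, ranged from 1.77 to 2.98 TPM in PGR-A KO and from 2.34 to 3.24 TPM in WT.

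**Figure D4:**
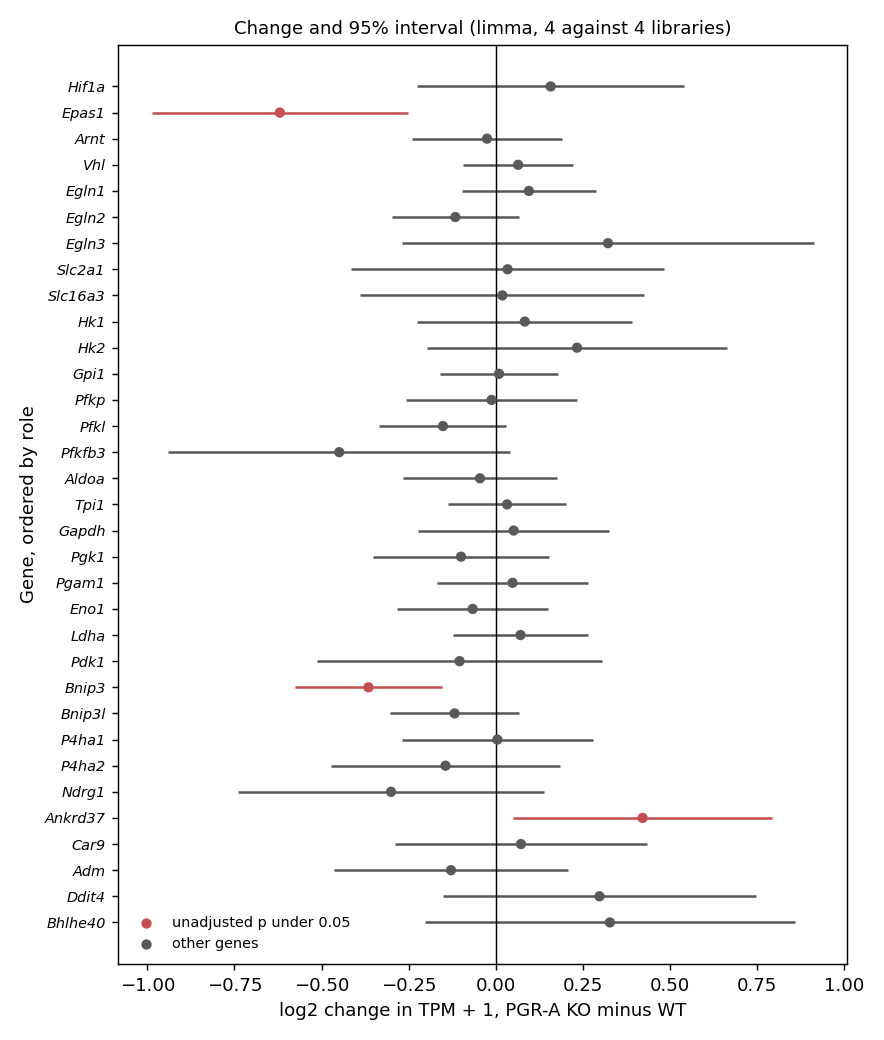
Change of each of the 33 tested members in log2(TPM + 1), PGR-A KO minus WT, with points for the limma estimate and lines for its 95% interval, n = 4 libraries each. The intervals of Epas1, Bnip3 and Ankrd37 (red, unadjusted p under 0.05) leave out 0, at -0.62, -0.37 and 0.42, and the lowest limma adjusted p is 0.625.

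Much of the variation lay between libraries rather than between genotypes. PGR-A KO replicate 3 was the lowest of the 8 libraries in 21 of the 33 tested members, or 63.6%, against 24.7% of all genes tested. The highest value was in replicate 1 or 2 of PGR-A KO or in WT replicate 1 for 27 of the 33. Over all genes tested, these libraries held the highest value in 9.38%, 15.7% and 18.3%. The summed level of the 34 members was 7228, 7038, 5437 and 6599 TPM in PGR-A KO replicates 1 to 4, against 7211, 6479, 6190.4 and 6195 TPM in WT replicates 1 to 4. PGR-A KO replicate 3 also had the lowest sum of ovulatory response markers and the highest sum of oocyte markers, at 1420.4 TPM against 796 to 1152 TPM in the other PGR-A KO libraries. The part of these differences in the members' levels was not tested. Of the ovulatory response list all 12 genes had higher means in PGR-A KO and 0 were called. Of the oocyte list all 10 had higher means in PGR-A KO and 0 were called.

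The calls changed when PGR-A KO replicate 3 was left out along with replicate 1 of WT. With the 6 other libraries 4 members passed, Hk2, Ankrd37, Ddit4 and Bhlhe40, all higher in PGR-A KO, with limma adjusted p of 0.0151, 0.0379, 0.0156 and 0.00622. Their log2 changes in this fit were 0.54, 0.63, 0.61 and 0.72. This is 12.1% of the tested members, where 8.01% of all genes passed, and 3.84% passed as higher. The libraries were left out because their values lay with the other genotype, so these counts do not measure an effect of genotype. Without PGR-A KO replicate 3 alone, 6 members had an unadjusted limma p under 0.05, and 0 passed the adjusted threshold. In that fit 1534 of the 14291 genes tested had such an unadjusted p, against 913 of 14472 with all libraries.

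**Figure D5:**
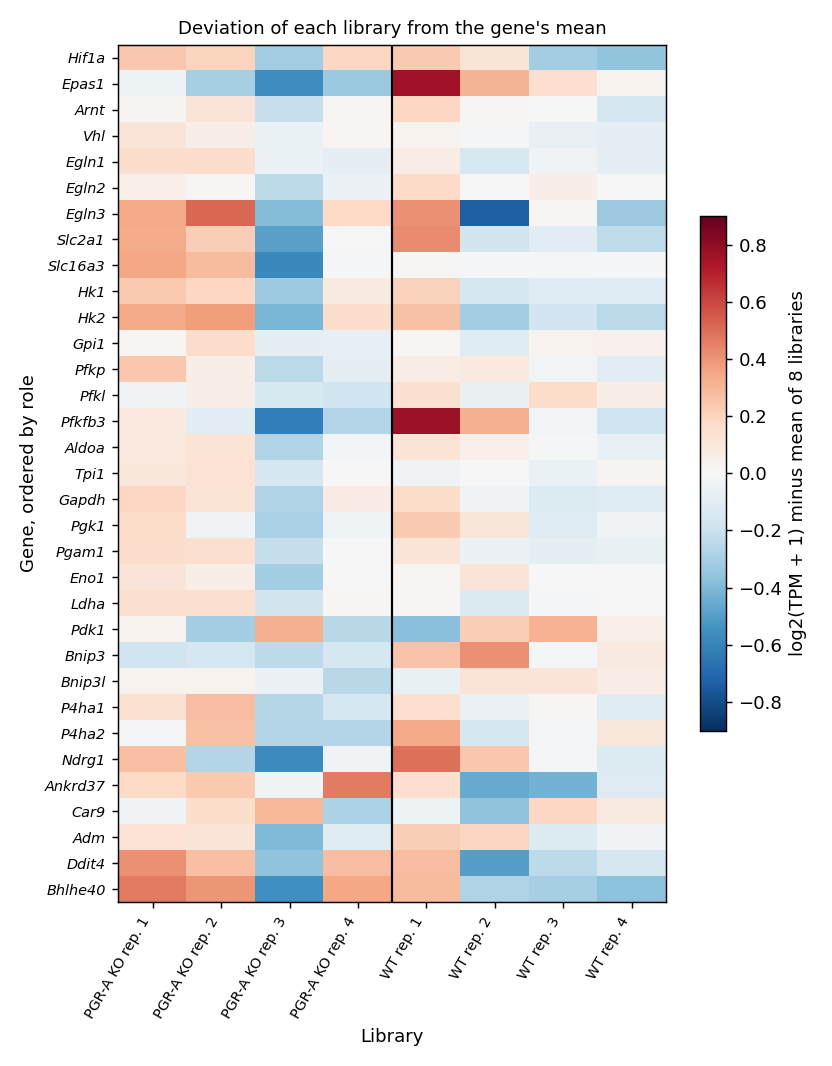
Heat map of the 33 tested members (down, by role) in 4 PGR-A KO libraries (left of the line) and 4 WT libraries (right), coloured by log2(TPM + 1) minus the mean of the gene over the 8 libraries. The column of PGR-A KO replicate 3 is blue for most genes, with the lowest value in 21 of 33, while Epas1 and Bnip3 are in shades of blue in the PGR-A KO libraries and red or near white in WT.

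Genes of the same pathways outside the 34 gave no call either. Of 16 tested regulators of hypoxia-inducible factors, 7 had positive and 9 negative changes, 0 passed, and the median log2 change was -0.0048. The lowest p among them were those of Eloc, a subunit of the von Hippel-Lindau ligase (log2 change 0.16, limma adjusted p = 0.774), Wsb1 (-0.28, adjusted p = 0.783) and Os9 (-0.16, adjusted p = 0.783). Of 29 tested other genes of glycolysis and pyruvate use, 14 had positive and 15 negative changes, 0 passed, and the median was -0.021. Pdk4, a pyruvate dehydrogenase kinase linked to fatty acid use, averaged 15.5 ± 3.75 TPM in PGR-A KO and 22.2 ± 3.68 TPM in WT (SD, n = 4 each; limma adjusted p = 0.752). The glucose transporter Slc2a3 and the D-lactate dehydrogenase Ldhd followed, with log2 changes of 0.37 and 0.36.

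Of 46 tested other hypoxia targets, 23 had positive and 23 negative changes and 0 passed, with a median of -0.0042. Nrn1, which encodes the neuronal growth factor neuritin, averaged 239.7 ± 27.5 TPM in PGR-A KO and 188 ± 36.0 TPM in WT (SD, n = 4 each; limma adjusted p = 0.783). The histone demethylase gene Kdm4b and the transferrin receptor gene Tfrc came next, with log2 changes of -0.24 (limma adjusted p = 0.783) and 0.22 (limma adjusted p = 0.792). Vegfa, the angiogenic target of both alpha subunits, had a log2 change of -0.027 (SE 0.20, limma adjusted p = 0.987) and is named outside the rule.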

How the data were processed

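RNA of 8 granulosa cell libraries was sequenced after poly(A) selection. The authors deposited gene-level TPM, and the submitters' processing notes name Salmon and the build mm10, without versions. The sources used here do not give the annotation or how transcripts became gene values. Library sums are 994519 to 997022 TPM; no depth is kept, so no counting interval is given.

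The filter kept genes of 1 TPM or more in 4 or more libraries. Their log2(TPM + 1) values were tested by limma 3.58.1 (R 4.3.3, prior variance following mean level), with Benjamini-Hochberg adjustment over all genes and a threshold of 0.05. Changes are PGR-A KO minus WT; adding 1 understates the change of low genes. For each member, all 70 assignments of libraries gave a 2-sided exact permutation p. The steps were tested on simulated data, with planted changes larger than that of any member and noise drawn separately for each gene and library. Libraries that stand apart in many genes were not simulated. Copies and positions are from GENCODE M21 (mm10), with BLASTN 2.17.0, at least 150 aligned bases and 95% identity.

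Members, lists and tests were chosen with earlier results of these data known. Values of each library are given for the factor subunits, members at an unadjusted p under 0.05 or with groups that do not overlap, the 6 most abundant and the 5 most variable; other lists give the 3 genes with the lowest p. Alternatives were other pseudocounts, filters, scalings and variance models, a replicate block, libraries left out, and sums with copies.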

Additional observations from a re-analysis of the deposited data

Results flagged for a closer look

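Of 68 sets of 4 libraries (34 genes in each genotype), 8 held a library far from the rest. Chance gives about 1 in 20, or 3.4, if the sets are independent. They are not, because all genes share the same libraries, so a library that stands apart can be counted in several genes. PGR-A KO replicate 3 lay below the other PGR-A KO libraries in Hif1a (140.5 TPM, others 198.7 to 207) and Bhlhe40 (40.3 TPM, others 76.0 to 82.7). WT replicate 1 lay above the other WT libraries in Slc2a1 (45.5 TPM, others 28.5 to 31.2), Hk1 (23.0 TPM, others 17.7 to 18.3), Bhlhe40 (72.8 TPM, others 46.0 to 49.2) and Slc16a3 (31.6 TPM, others 31.0 to 31.1). The Slc16a3 gap is small in absolute terms, because the WT libraries were almost equal. WT replicate 1 lay below the others in Hif3a (0.423 TPM, others 0.538 to 0.552), a gene under the filter. WT replicate 2 lay below the others in Gpi1 (181 TPM, others 197 to 199.8).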

How the results depend on the processing

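The fit of 6 libraries was added after seeing the data. No member passed in any of the 17 other alternatives to the fit, nor after summing with copies. The 2 genes called overall became 1 with a pseudocount of 5, 0 to 6 with a library left out and 1131 with 6 libraries, where 4 members passed and 13 had an unadjusted p under 0.05. In that fit of 6 libraries 3543 of the 14114 genes tested had an unadjusted limma p under 0.05. The 3 members at an unadjusted p under 0.05 became 2 to 6 with a library left out, with 6 without PGR-A KO replicate 3. Over all genes tested, the 913 at such a p became 505 to 1832 with a library left out. Epas1 and Bnip3 kept their direction and an unadjusted p under 0.05 in all 18 and 19 alternatives, with log2 changes of -0.71 to -0.39 and -0.43 to -0.29; Ankrd37 did so in 12 of 17 and was removed by the minimum of 5 TPM. The median change of all genes was -0.023 in the reported fit, 0.013 with TMM factors and 0.014 with quantile normalization.

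Signs near 0 changed. With TMM factors and quantile normalization Arnt became 0.014 and 0.0074, and Pfkp 0.026 and 0.026. With 6 libraries the changes were 0.098 for Arnt, 0.086 for Pfkp, 0.070 for Aldoa, 0.044 for Pgk1, 0.019 for Eno1, 0.011 for P4ha2, -0.019 for Car9 and 0.034 for Adm. With a library left out the range was -0.071 to 0.20 for Slc2a1, -0.095 to 0.22 for Slc16a3, -0.0014 to 0.15 for Gapdh, -0.087 to 0.090 for P4ha1, -0.043 to 0.040 for Gpi1, -0.0044 to 0.089 for Tpi1, -0.079 to 0.040 for Arnt, -0.094 to 0.066 for Pfkp, -0.093 to 0.038 for Aldoa, -0.12 to 0.024 for Eno1 and -0.037 to 0.18 for Car9. The cause was not tested. The groups share replicate numbers, and whether these pair the libraries was not settled. Deviations of same-numbered libraries correlated at 0.36, -0.11, 0.39 and -0.29. The highest correlations with another number were 0.11, 0.19, 0.43 and 0.29. With the replicate block 5 members had an unadjusted limma p under 0.05 and 0 passed. Over all genes tested, those at such a p went from 913 to 1368. The SE of the Epas1 change went from 0.16 to 0.088 (limma adjusted p = 0.229 with the block).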
